A study of Gossypium hirsutum with 9 samples.

Results

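XinFLM is a mutant line of Upland cotton (Gossypium hirsutum) whose seeds carry lint but no fuzz, and its ovules were followed here over the single day that ends at 1 day post anthesis (DPA) and starts at 0 DPA, the day of flowering. XinFLM had been isolated from XinWX, a line with neither lint nor fuzz, and by the study's account the lines are isogenic and differ at 1 locus for lint. RNA of XinFLM and of XinWX at the same stage was hybridized to each dual-dye cDNA array, with XinFLM in Cy5 and XinWX in Cy3 on replicates 1 and 3 and the dyes interchanged on replicate 2. The members are the XinFLM channels of the 3 arrays of 1 DPA and the 3 arrays of 0 DPA, 6 of the 9 arrays of the series, and the 3 arrays of -1 DPA entered the same fits and normalization and give the level of the day before. The plants were field-grown and untreated, and the labels describe the tissue as a mixture of ovule and fiber, so that at 1 DPA the samples can hold young fibers that were not yet there at 0 DPA. A larger share of one cell type and more RNA per cell cannot be told apart in such samples. By the methods each stage had 2 biological replicates plus a dye swap, while the design text speaks of 3 replicates, so that part of the spread between arrays behind the p-values can be technical.

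Cotton fibers are single cells that grow out of the outer layer of the ovule, and lint initials bulge from the surface around the day of flowering and begin to elongate within the next day. Jasmonic acid (JA) is a lipid hormone made from membrane fatty acids by lipoxygenase, allene oxide synthase, allene oxide cyclase and 12-oxophytodienoate reductase 3 (OPR3), in that order. Elongating fibers need membrane and wall lipids, and lipid transfer proteins are among the transcripts for which young cotton fibers are known. Gene names were at hand for 18 of the probes. They were taken from the study's text and primer table. The other probes could not be paired with genes from the tables used here and are given by their IDs, and for the same reason the labelled tissue was not checked against defining marker genes.

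Of 30000 spots per array, 29184 held cotton probes, and 21071 different probes were bright enough to be tested, with at least 400 units above background in 1 channel on 2 or more arrays at both stages. The arrays of 1 DPA stood apart from each other. Across the tested probes, which are not independent replicates, the normalized XinFLM intensities of replicates 1 and 2 of 1 DPA correlated at r = 0.90. Replicate 3 of 1 DPA correlated with them at 0.80 and 0.77. With the arrays of 0 DPA, replicates 1, 2 and 3 of 1 DPA correlated at 0.82 to 0.84, 0.77 to 0.79 and 0.84 to 0.85. The 3 arrays of 0 DPA correlated with each other at 0.91 to 0.96. In XinWX, replicate 3 of 1 DPA correlated with replicates 1 and 2 at 0.83 and 0.77. Its XinWX values with the arrays of 0 DPA were 0.89 to 0.92. Replicate 3 of 1 DPA also had the lowest median XinFLM intensity, 694 units, against 988 and 808 units on replicates 1 and 2 of 1 DPA and 1044 to 1395 units on the arrays of 0 DPA. The median XinWX intensity of the same array was 1664 units. It was 992 and 900 units on replicates 1 and 2 of 1 DPA and 1096 to 1346 units at 0 DPA. Spots that hold no cotton probe behaved differently on replicates 1 and 2 of 1 DPA. Spots whose names begin with CM had median XinFLM signals of 332, 465 and 31 units on replicates 1, 2 and 3 of 1 DPA and of 29 to 52 units at 0 DPA, and DMSO spots had 568, 1110 and 51 units at 1 DPA and 29 to 224 units at 0 DPA. The bright spots whose names begin with Y had median XinFLM signals of 32668 and 29817 units on replicates 1 and 2 of 1 DPA, and of 65204 to 65364 units, near the scanner ceiling, on replicate 3 of 1 DPA and at 0 DPA. In the XinWX channel of replicates 1 and 2 of 1 DPA the Y spots stayed near the ceiling, at 64943 and 65434 units. On these arrays the 2 channels thus differed, and the part of this in the ratios was not tested. Probe spots also shifted together by position. In the 3 of 48 print-tip grids with the highest share of probes called, the median XinFLM intensity lay 0.62 to 0.36 below the probes' own average (log2) on replicates 1 and 2 of 1 DPA, and 0.09 to 0.49 above it on the other 4 arrays. The part of these differences between arrays in the results was not tested. Calls of named probes that were gained or lost without arrays of 1 DPA, or with each channel centred within its grid, are given with those values.

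**Figure D1:**
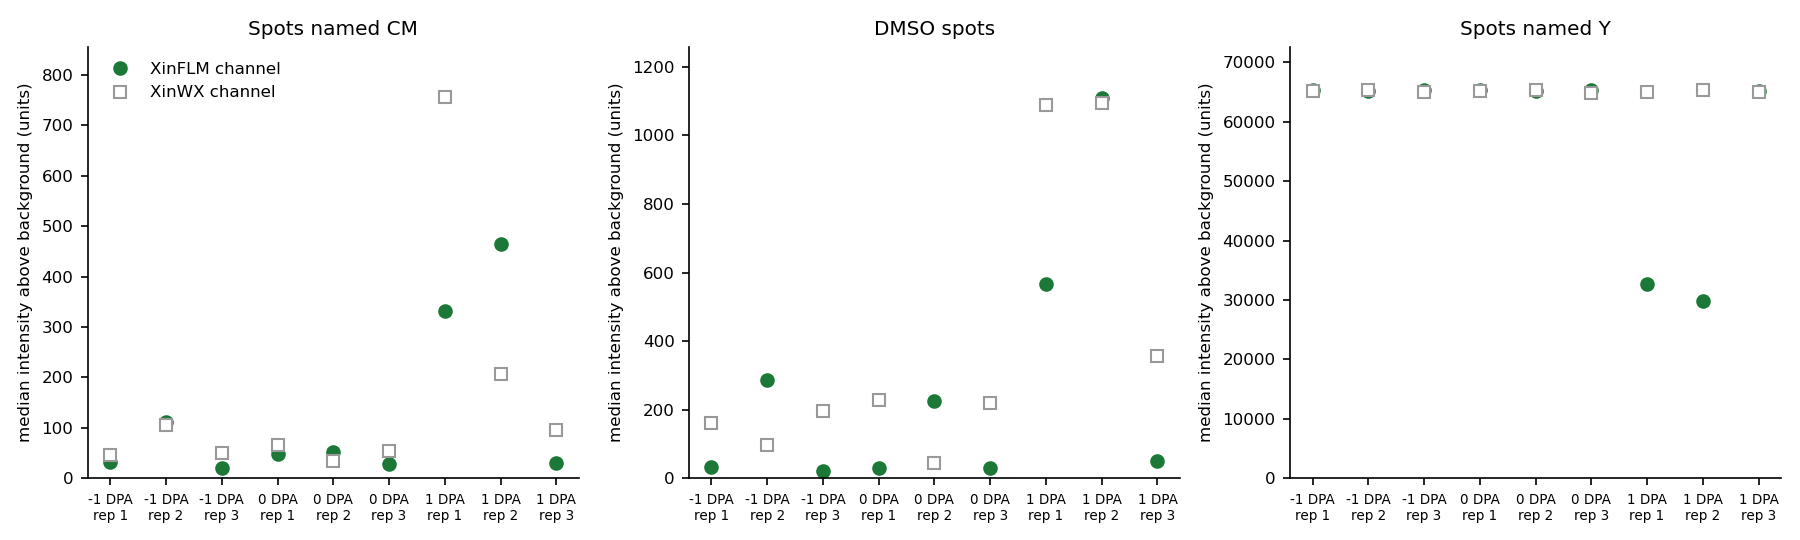
Median intensity above background (units) of 3 kinds of spots without cotton probes on each of the 9 arrays, in the XinFLM channel (filled circles) and the XinWX channel (open squares). Replicates 1 and 2 of 1 DPA have raised CM and DMSO signals (332 and 465 units, 568 and 1110 units in XinFLM) and lowered XinFLM signals of the Y spots (32668 and 29817 units).

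Between 0 and 1 DPA 692 probes changed in XinFLM, or 3.28% of the 21071 tested (limma, with a false discovery rate (FDR) below 0.05 and at least a 2-fold change). Of these 258 were higher at 1 DPA (1.22% of those tested) and 434 were lower (2.06%). The probes that rose had a median change of log2 1.40 and those that fell one of -1.38, beside a median of 0.00 over all tested probes, and 28 rises and 32 falls reached 4-fold. The intensities of 1 DPA and 0 DPA did not overlap for 676 of the 692 probes, beside 23.9% of all tested probes. Each of the 692 probes was on the same side of its 0 DPA mean on all 3 arrays of 1 DPA. The calls were made on the same arrays, so both counts largely follow from them and are no separate support. Falls outnumbered rises in each of 4 equal classes of mean intensity, with 28 rises and 68 falls in the dimmest class and 79 and 124 in the brightest. XinWX ovules hybridized to the same arrays had 80 changed probes over the same day (0.380%), 13 higher and 67 lower at 1 DPA, and 37 of these were among the 692. The XinWX count also moved with the arrays. It was 2416 without replicate 3 of 1 DPA, 6 to 45 without any other single array, 8 with the arrays of 0 and 1 DPA alone, 502 with the replicate number as a block, and 1 or 1055 with replicates 1 and 2 or replicates 2 and 3 averaged. A count past the threshold in one line and not in the other does not show a difference between them, so the difference of change was tested on its own.

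These counts moved with the arrays. When replicates 1 and 2, which differ in dye, were averaged into 1 sample, so that each stage has 2 samples, no probe was called in XinFLM (the smallest adjusted p in limma was 0.0523, with 2167 probes at an unadjusted p under 0.05). Leaving out replicate 3 of 1 DPA gave 2346 calls, leaving out replicate 1 or replicate 2 of 1 DPA gave 362 each, and leaving out replicate 1, 2 or 3 of 0 DPA gave 128, 140 and 313. Without both replicates 1 and 2 of 1 DPA, an alternative chosen after the data were seen, 763 probes were called (365 higher and 398 lower), and the probes shared with the 692 made up 30.5% of the 763 and 33.7% of the 692. With each channel centred within its print-tip grid, also chosen after seeing the data, 783 were called, and the shared probes made up 66.3% of the 783 and 75.0% of the 692. In these 3 grids 86 probes were called lower and 5 higher, and the share called per grid ranged from 0.891% to 10.5%. The balance of directions depended on the scaling. Scale normalization of the channels gave 448 higher and 402 lower, and without normalization across arrays 39 were higher and 315 lower, with the median of all tested probes at log2 -0.26.

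**Figure D2:**
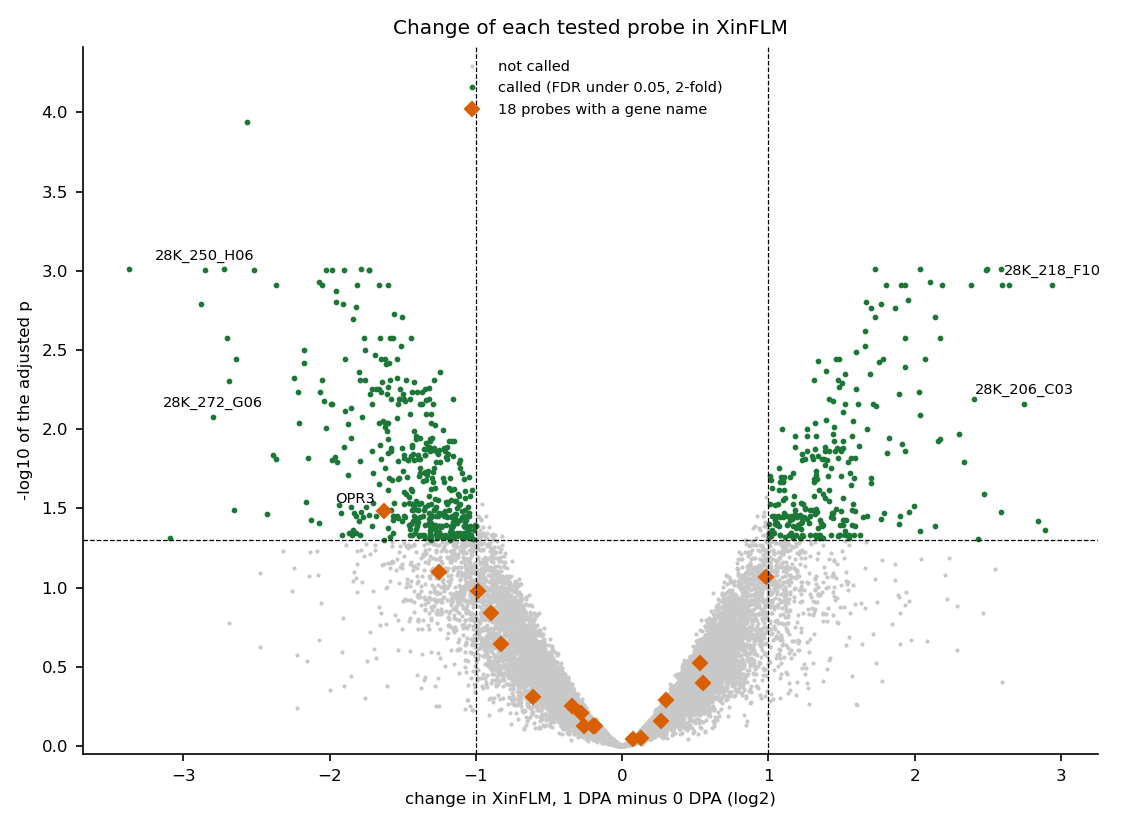
Change of each of the 21071 tested probes in XinFLM (x axis, log2, 1 DPA minus 0 DPA) against -log10 of the adjusted p (y axis), with called probes in green, the other probes in grey, the 18 probes with a gene name as diamonds and the limits as dashed lines. The 692 called probes lie in the outer upper corners, and of the diamonds OPR3 alone is past both limits.

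**Figure D3:**
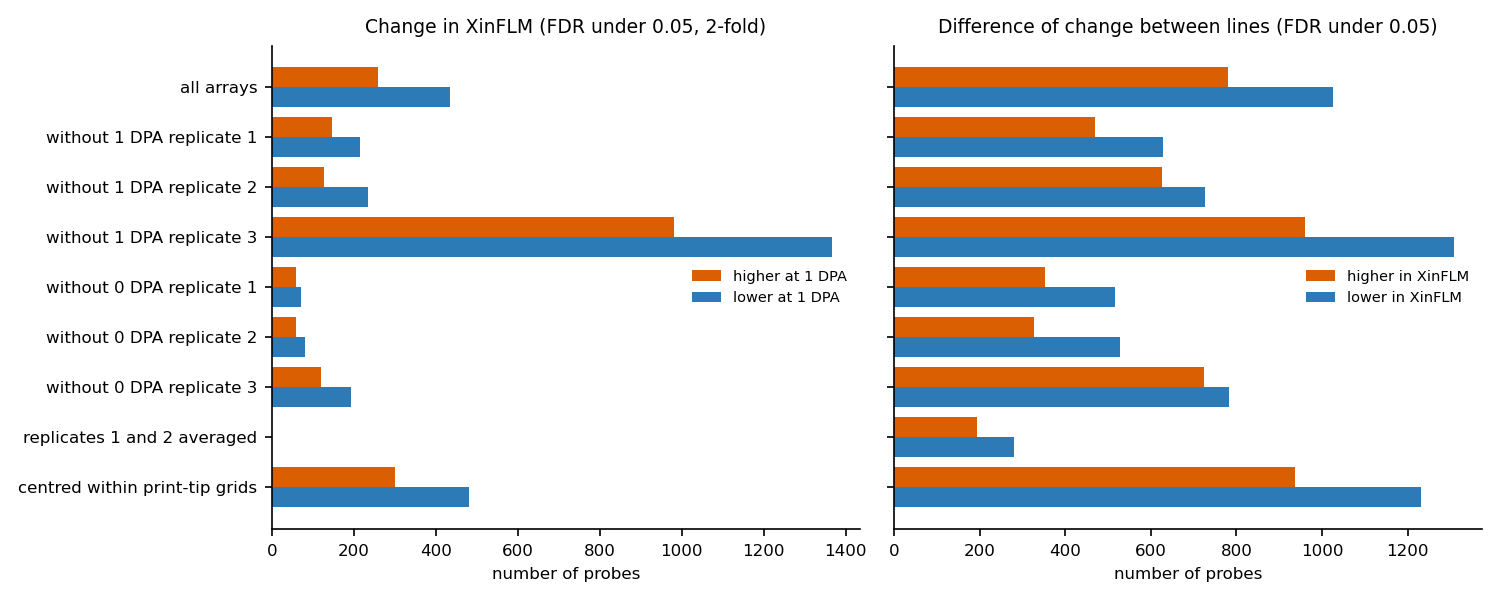
Number of probes (x axis) called for the change in XinFLM (left) and for the difference of change between the lines (right) with all arrays, without single arrays, with replicates 1 and 2 averaged, and with channels centred within print-tip grids. Calls in XinFLM run from 0 with replicates 1 and 2 averaged to 2346 without replicate 3 of 1 DPA, and under these settings the difference of change has 475 and 2269.

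Among called probes with at least 400 XinFLM units on all 6 arrays, only those whose stages did not overlap were ranked by change. The largest rises and falls included probes whose change differed from that of XinWX and probes that went the same way in XinWX. Probe 28K_218_F10 had normalized XinFLM intensities (log2) of 14.98, 15.50 and 15.72 on replicates 1, 2 and 3 of 1 DPA, against 12.91, 12.48 and 11.99 at 0 DPA. All 3 arrays of 1 DPA were well above all 3 of 0 DPA, and the rise of 7.67-fold (log2 2.94, standard error 0.43, adjusted p = 0.00123 in limma) was the largest of all tested probes. In XinWX its change was log2 0.28 (adjusted p = 0.789), and the change differed between the lines by log2 2.65 (standard error 0.28, adjusted p = 3.58e-05). Probe 28K_206_C03 had 14, 13.17 and 11 at 1 DPA, against 9.32, 9.91 and 10.69 at 0 DPA. Its rise of 6.72-fold (adjusted p = 0.00694) came mainly from replicates 1 and 2, since replicate 3 was close to the highest array of 0 DPA and the change without replicates 1 and 2 was log2 1.06 (adjusted p = 0.269). In XinWX the same probe rose by log2 2.61 (adjusted p = 0.0399), and the difference of change was log2 0.14 (adjusted p = 0.741).

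Among the falls, 28K_250_H06 had 10.14, 9.92 and 11.15 at 1 DPA, against 13.30, 13.37 and 13.09 at 0 DPA. It fell 7.22-fold (log2 -2.85, standard error 0.40, adjusted p = 0.000986), while its XinWX change was log2 -0.44 (adjusted p = 0.611) and the difference of change was log2 -2.41 (adjusted p = 9.35e-05). This probe lies in one of the 3 grids with the highest share called, and with channels centred within grids its fall was log2 -2.42 (adjusted p = 0.000445). Probe 28K_272_G06 had 11.35, 9.94 and 12.74 at 1 DPA, against 14.29, 13.73 and 14.42 at 0 DPA. It fell 6.96-fold (adjusted p = 0.00841), with replicate 3 the nearest to the arrays of 0 DPA and a change of log2 -1.42 without replicates 1 and 2 (adjusted p = 0.065). In XinWX the probe fell by 3.05 on the log2 scale (adjusted p = 0.0235), and the difference of change was log2 0.25 (adjusted p = 0.548). With replicates 1 and 2 averaged, the adjusted p of the changes in XinFLM was 0.0523 for 28K_218_F10, 0.0553 for 28K_250_H06, 0.234 for 28K_206_C03 and 0.192 for 28K_272_G06. Among single arrays left out, the call of 28K_206_C03 was lost without replicate 1 of 1 DPA (0.0538) and without replicate 1 or 2 of 0 DPA (0.066 and 0.051), and that of 28K_272_G06 without replicate 1 of 0 DPA (0.0625).

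Units are taken before normalization. On replicates 1, 2 and 3 of 1 DPA 22008, 19109 and 18391 probes had at least 400 XinFLM units, against 22386, 22250 and 20556 at 0 DPA. The part of this in the next 2 counts was not tested. Of the called probes, 30 that fell had under 400 XinFLM units on all 3 arrays of 1 DPA, and 3 that rose had under 400 units on all 3 arrays of 0 DPA, so that only a lower bound of their fold change can be given. It sets the mean of the brighter stage against, on each array of the dimmer stage, the probe's own value or the lowest value of any probe with at least 400 units, whichever is higher. The bound itself was not tested, and the adjusted p printed with it is that of the fitted change. It is a point value from the normalization used here, leaves out the spread between arrays, and can be smaller under other settings. Probe 28K_294_D08 had 208, 105 and 282 units at 1 DPA, against 3120, 2541 and 2145 units at 0 DPA. Its signal was near background on every array of 1 DPA, and it fell at least 4.07-fold (adjusted p = 0.000976 in limma). In XinWX its change was log2 -0.15 (adjusted p = 0.866). Probe 28K_070_D10 fell at least 3.03-fold (adjusted p = 0.0017), with 334, 262 and 342 units at 1 DPA against 1652, 1987 and 2078 units at 0 DPA, and its XinWX change was 0.00. Probe 28K_152_C05 rose at least 3.89-fold (adjusted p = 0.0116), with 702, 3048 and 872 units at 1 DPA against 308, 331 and 347 units at 0 DPA, and the call was lost without replicate 1 or 2 of 0 DPA (0.0855 and 0.0763). With replicates 1 and 2 averaged that call was lost too (0.0821). Its difference of change, log2 0.86 (adjusted p = 0.0136), was lost without the same arrays (0.0699 and 0.0563). The difference was also lost with replicates 1 and 2 averaged (0.0914) and in a fit of separate channels (0.0772). For 28K_135_E09 the bound was 3.66-fold (adjusted p = 0.0409). The call was lost in 18 of 28 alternatives. Among these were each single array but replicate 3 of 1 DPA left out (adjusted p 0.0534 to 0.161) and channels centred within grids (log2 2.07, adjusted p = 0.0797). Its signal at 1 DPA was 2190 and 2735 units on replicates 1 and 2 and 162 units on replicate 3, against 288, 336 and 289 units at 0 DPA. The groups overlapped there, and the change was log2 0.19 (adjusted p = 0.788) without replicates 1 and 2 of 1 DPA.

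The change from 0 to 1 DPA differed between XinFLM and XinWX for 1806 of the 21071 probes, or 8.57% (FDR under 0.05, limma on the log2 ratio of XinFLM over XinWX within each array, 1 DPA minus 0 DPA). For 780 probes (3.70%) the difference was upward in XinFLM and for 1026 (4.87%) it was downward, and with a 2-fold limit added 714 probes passed. Of the 692 probes called in XinFLM, 340 passed this test, 122 of those that rose and 218 of those that fell. All 122 differed upward, and 217 of the 218 differed downward. The change in XinFLM by which they were called is part of the difference tested, so this overlap is no separate support. The probes that rose in XinFLM had a median XinWX change of log2 0.67 and those that fell one of -0.69, but they had been picked by their change in XinFLM, and both lines share each array. The ratio is taken within an array, and its changes from same-numbered arrays of 1 DPA and 0 DPA correlated across probes at r = 0.70 (replicates 1 and 2), 0.39 (1 and 3) and 0.32 (2 and 3). The same values for the XinFLM intensities were 0.62, 0.11 and 0.17. When replicates 1 and 2 were averaged, 475 probes passed, 474 of them among the 1806. Per print-tip grid 5.82% to 13.8% of the probes passed.

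The largest upward differences with ratios on all 6 arrays that did not overlap were those of 28K_196_F06 and 28K_201_D02. The log2 ratio of XinFLM over XinWX for 28K_196_F06 was 3.48, 3.52 and 3.91 at 1 DPA, against 0.82, 0.50 and 0.96 at 0 DPA. XinFLM was thus the higher line on all 6 arrays, and the ratio grew by log2 2.87 (standard error 0.19, adjusted p = 2.05e-06). In XinFLM the probe rose 6.25-fold (adjusted p = 0.00123), with 15.27, 14.46 and 15.54 at 1 DPA against 11.50, 12.63 and 13.21 at 0 DPA, while its XinWX change was log2 -0.23 (adjusted p = 0.812). For 28K_201_D02 the ratio was 3.24, 3.12 and 2.99 at 1 DPA, against 0.44, 0.19 and 0.37 at 0 DPA, a difference of log2 2.78 (adjusted p = 2.05e-06), with a rise in XinFLM of 3.82-fold (adjusted p = 0.00267) and an XinWX change of log2 -0.85 (adjusted p = 0.202). Without replicates 1 and 2 of 1 DPA the change of 28K_201_D02 in XinFLM was log2 1.05 (adjusted p = 0.0962).

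The largest downward differences were those of 28K_118_B04 and 28K_277_G11. Their ratios were negative on all 3 arrays of 1 DPA and positive on all 3 of 0 DPA. The ratio for 28K_118_B04 was -3.27, -3.51 and -1.70 at 1 DPA, against 0.32, 0.35 and 0.28 at 0 DPA (difference log2 -3.14, standard error 0.34, adjusted p = 4.45e-05). In XinFLM it fell 6.44-fold (adjusted p = 0.00497), to 9.53, 9.37 and 9.73 at 1 DPA, against 12.24, 12.27 and 12.17 at 0 DPA. The ratio for 28K_277_G11 was -3.77, -3.44 and -1.28 at 1 DPA, against 0.46, 0.21 and 0.07 at 0 DPA (difference log2 -3.08, adjusted p = 0.000552), with replicate 3 the least extreme in both probes. The XinFLM signal was under 400 units at 1 DPA on replicate 2 of 28K_118_B04 (341 units) and on replicates 1 and 3 of 28K_277_G11 (390 and 366 units), so that these values lie near background. Without replicates 1 and 2 of 1 DPA the differences were log2 -2.01 (adjusted p = 0.00183) for 28K_118_B04 and -1.53 (adjusted p = 0.0148) for 28K_277_G11. Neither line's own change passed for 28K_277_G11 (XinFLM log2 -1.65, adjusted p = 0.145, and XinWX log2 1.43, adjusted p = 0.274), but that in XinFLM passed without replicate 3 of 1 DPA (log2 -1.70, adjusted p = 0.00421).

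Among the 18 probes with a gene name, 1 fell in XinFLM, none rose, and 17 did not pass, beside 3.28% called over all tested probes. An unadjusted p under 0.05 in limma was found for 6 of the 18, beside 4230 of the 21071 tested probes. None of the 18 passed in XinWX. Their median change was log2 -0.23, beside 0.00 over all tested probes. The intensities of 1 DPA and 0 DPA did not overlap for 6 of the 18, 2 that lay higher at 1 DPA and 4 that lay lower, beside 23.9% of all tested probes. The change differed between the lines for 7 of the 18, upward for 2 and downward for 5, beside 8.57% of all tested probes (3.70% upward and 4.87% downward). The study chose these probes on these samples, 4 of them because the lines did not differ and others because they did. The counts of the 18 are no independent evidence of a direction. The plot of their levels by stage gives each array's value.

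**Figure D4:**
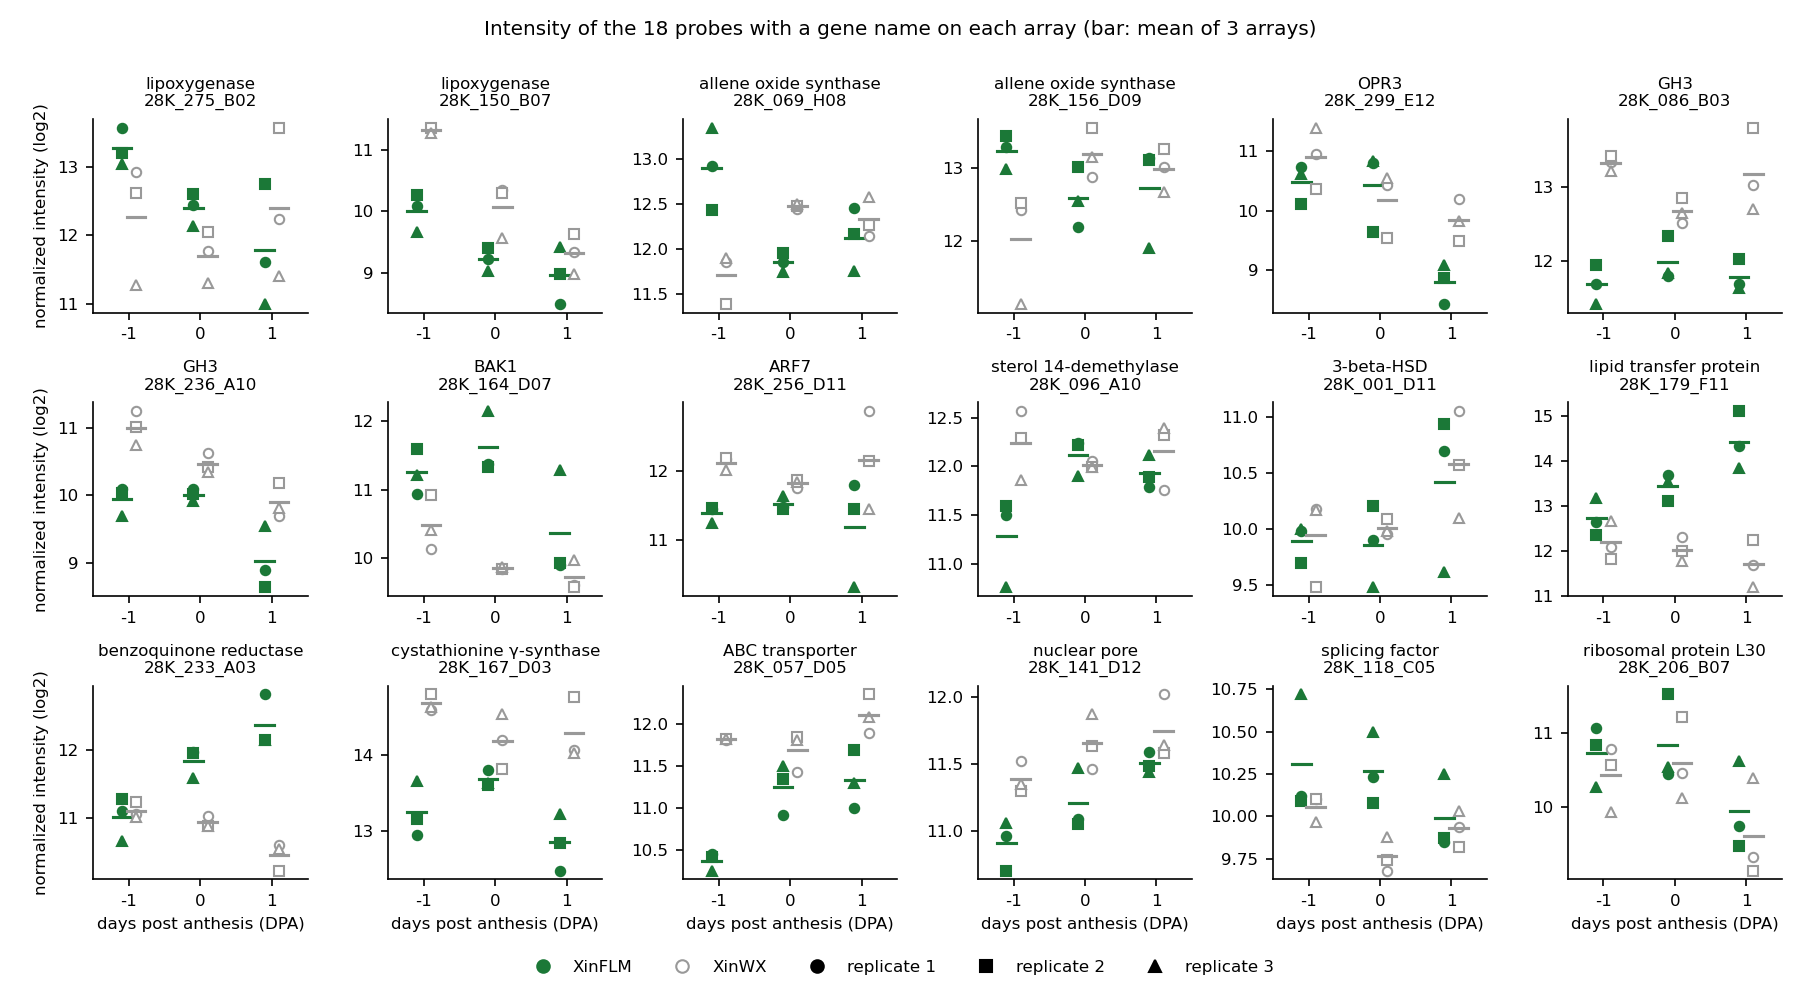
Normalized intensity (log2, y axis) of the 18 probes with a gene name at -1, 0 and 1 DPA (x axis) in XinFLM (filled) and XinWX (open), with 1 point per array and a bar at the mean of 3 arrays. The lipid transfer protein probe has 14.34, 15.12 and 13.85 in XinFLM at 1 DPA against 13.70, 13.12 and 13.53 at 0 DPA, and the OPR3 probe has 8.43, 8.86 and 9.09 against 10.80, 9.64 and 10.83.

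Of the 5 probes for enzymes of JA synthesis, 1 fell in XinFLM (OPR3), none rose and 4 did not pass, beside 2.06% of all tested probes called lower and 1.22% called higher, with a median change of log2 -0.26. OPR3, which in Arabidopsis reduces the cyclic precursor of JA in the peroxisome, is represented by 28K_299_E12. It had 266, 195 and 247 XinFLM units at 1 DPA, against 2018, 792 and 1585 units at 0 DPA. Each array of 1 DPA was below each array of 0 DPA and under 400 units, and the bound of the fall was 2.22-fold with the normalization used here. The fitted change was log2 -1.63 (standard error 0.41, adjusted p = 0.0328 in limma). The call was lost without replicate 1 of 0 DPA (adjusted p = 0.163), replicate 3 of 0 DPA (0.13), replicate 1 of 1 DPA (0.0589), replicate 2 of 1 DPA (0.061) or replicate 1 of -1 DPA (0.0549). It was also lost with the arrays of 0 and 1 DPA alone (0.0628), without replicates 1 and 2 of 1 DPA together (0.117) and with replicates 1 and 2 averaged (0.154). The probe lies in one of the 3 grids with the highest share called, and with channels centred within grids its change was log2 -1.14 (adjusted p = 0.0496). In XinWX it had 10.20, 9.48 and 9.83 (log2) at 1 DPA, against 10.44, 9.54 and 10.55 at 0 DPA, a change of -0.34 (adjusted p = 0.72). The log2 ratio of XinFLM over XinWX was -1.78, -0.62 and -0.74 at 1 DPA, against 0.36, 0.10 and 0.29 at 0 DPA, and this difference of -1.29 (standard error 0.27, adjusted p = 0.00706) passed in all 28 alternatives (adjusted p up to 0.0486).

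Lipoxygenase, which oxygenates the fatty acid at the start of the pathway, is represented by 28K_275_B02 and 28K_150_B07. The XinFLM intensities of 28K_275_B02 were 11.61, 12.75 and 11 at 1 DPA, against 12.44, 12.60 and 12.14 at 0 DPA. They overlapped, and the change of log2 -0.61 did not pass (standard error 0.47, adjusted p = 0.491). The log2 ratio of XinFLM over XinWX was -0.63, -0.81 and -0.40 at 1 DPA, against 0.67, 0.56 and 0.85 at 0 DPA. XinFLM was the higher line on all 3 arrays of 0 DPA and the lower line on all 3 of 1 DPA, a difference of log2 -1.31 (standard error 0.26, adjusted p = 0.00596). It was log2 -1.09 (adjusted p = 0.117) without replicates 1 and 2 of 1 DPA and passed in the 29 other alternatives. Replicate 2 was the highest array of 1 DPA in both lines, with 12.75 in XinFLM and 13.56 in XinWX. Probe 28K_150_B07 had 297, 235 and 345 XinFLM units at 1 DPA, against 618, 662 and 353 units at 0 DPA, and its change of log2 -0.26 (adjusted p = 0.748) and its difference of log2 0.48 (adjusted p = 0.335) did not pass. Without replicates 1 and 2 of 1 DPA the difference of 28K_150_B07 was log2 1.26 and passed (adjusted p = 0.0283), with a change in XinFLM of 0.18.

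The study's primers for RT-qPCR of the lipoxygenase probe 28K_150_B07 and the OPR3 probe 28K_299_E12 are shown because the pairs, given for different enzymes, are nearly the same. Both forward primers share a run of 17 bases and both reverse primers share another run of 17 bases, printed in capitals. The primers of the other lipoxygenase probe, 28K_275_B02, are set beside them.
28K_150_B07 forward: CTCGGACTACTTACCATttc
28K_299_E12 forward: gCTCGGACTACTTACCAT
28K_150_B07 reverse: TCACCTGCTCAGATGTAa
28K_299_E12 reverse: cTCACCTGCTCAGATGTA
28K_275_B02 forward: ctactgatatggaatgctctc
28K_275_B02 reverse: cctacatggacagactca
On the arrays the probes of these pairs did not give the same values. At 0 DPA the log2 ratio of XinFLM over XinWX was -1.10, -0.88 and -0.52 for 28K_150_B07, against the 0.36, 0.10 and 0.29 of 28K_299_E12.

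Allene oxide synthase, which turns the lipoxygenase product into an allene oxide, did not pass on either probe. The XinFLM intensities of 28K_069_H08 were 12.45, 12.17 and 11.75 at 1 DPA, against 11.86, 11.96 and 11.74 at 0 DPA, and those of 28K_156_D09 were 13.14, 13.11 and 11.91 at 1 DPA, against 12.20, 13.01 and 12.55 at 0 DPA. The groups overlapped on both, replicate 3 of 1 DPA was the lowest of its stage on both, and the changes were log2 0.27 (standard error 0.34, adjusted p = 0.695) and 0.13 (standard error 0.41, adjusted p = 0.89). The differences of change were log2 0.42 (adjusted p = 0.335) and 0.34 (adjusted p = 0.478). That of 28K_069_H08 passed without replicate 3 of 1 DPA (log2 0.73, adjusted p = 0.0296) and with array quality weights (log2 0.58, adjusted p = 0.0366), and was log2 -0.21 (adjusted p = 0.576) without replicates 1 and 2 of 1 DPA.

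**Figure D5:**
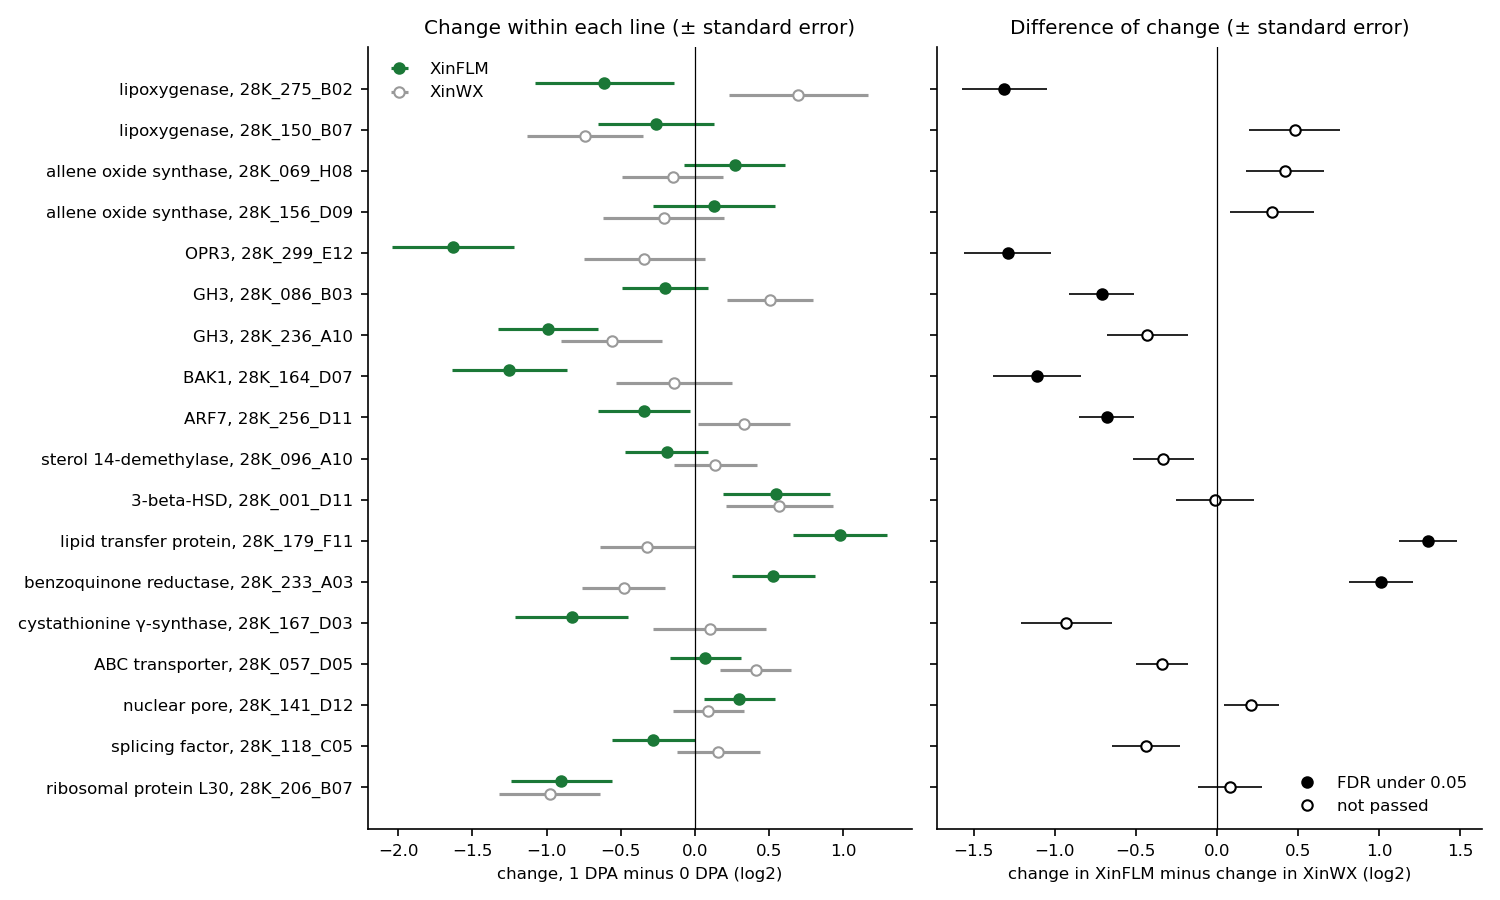
Change of the 18 probes with a gene name, 1 DPA minus 0 DPA (log2, x axis), within XinFLM (filled) and XinWX (open) on the left, and the change in XinFLM minus that in XinWX on the right, with standard errors from limma. Filled points on the right have an FDR under 0.05. The lipid transfer protein (1.30) and benzoquinone reductase (1.01) probes pass upward, and the lipoxygenase probe 28K_275_B02 (-1.31), OPR3 (-1.29), BAK1 (-1.11), GH3 28K_086_B03 (-0.71) and ARF7 (-0.68) pass downward.

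Of the lipid, redox, sulfur and transport probes, 4 in all, none passed in XinFLM and 2 passed for the difference of change, both upward. Lipid transfer proteins are small secreted proteins that bind lipids, and their probe 28K_179_F11 had XinFLM intensities of 14.34, 15.12 and 13.85 at 1 DPA, against 13.70, 13.12 and 13.53 at 0 DPA. Each array of 1 DPA lay above each array of 0 DPA, and the change of log2 0.98 (1.98-fold, standard error 0.32, adjusted p = 0.0861) missed both limits. Without replicate 3 of 1 DPA it was log2 1.27 (adjusted p = 0.0138), and without replicates 1 and 2 of 1 DPA it was 0.40 (adjusted p = 0.572). In XinWX the change was log2 -0.32 (adjusted p = 0.654). The log2 ratio of XinFLM over XinWX was 2.66, 2.88 and 2.66 at 1 DPA, against 1.40, 1.14 and 1.75 at 0 DPA, so that an excess of XinFLM present on all 3 arrays of 0 DPA was larger on all 3 of 1 DPA. The difference of log2 1.30 (2.46-fold, standard error 0.18, adjusted p = 0.000409) passed with replicates 1 and 2 averaged (adjusted p = 0.0214), and was log2 0.59 (adjusted p = 0.101) with scale normalization of the ratios between arrays. At -1 DPA the XinFLM intensities were 12.64, 12.35 and 13.18.

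Benzoquinone reductase, an enzyme that reduces quinones, is represented by 28K_233_A03, with XinFLM intensities of 12.81, 12.14 and 12.14 at 1 DPA, against 11.97, 11.95 and 11.59 at 0 DPA. The groups did not overlap, and the change of log2 0.53 (standard error 0.28, adjusted p = 0.299) did not pass. Its log2 ratio was 2.21, 1.91 and 1.60 at 1 DPA, against 0.93, 1.06 and 0.71 at 0 DPA, a difference of log2 1.01 (standard error 0.20, adjusted p = 0.00542). It was log2 0.98 (adjusted p = 0.0825) with replicates 1 and 2 averaged, 0.55 (adjusted p = 0.148) with scale normalization of the ratios and 0.70 (adjusted p = 0.0966) without replicates 1 and 2 of 1 DPA. The study's primers for both probes whose ratio grew are given to identify the transcripts.
28K_179_F11 forward: gcaagtattttccttacacg
28K_179_F11 reverse: tacacaacgcataactctgg
28K_233_A03 forward: catctgttgaaggtgttg
28K_233_A03 reverse: atcattccgaatcttgttg
Cystathionine gamma-synthase, an enzyme on the way to methionine, had 12.48, 12.85 and 13.23 in XinFLM at 1 DPA (28K_167_D03), against 13.80, 13.61 and 13.63 at 0 DPA. All arrays of 1 DPA were lower, but the change of log2 -0.83 (adjusted p = 0.228) and the difference of log2 -0.93 (adjusted p = 0.0529) did not pass, and the difference passed in 9 of 30 alternatives, among them without replicate 3 of 1 DPA (adjusted p = 0.00697) and with channels centred within grids (adjusted p = 0.0367). Without replicates 1 and 2 of 1 DPA it was log2 -0.29 (adjusted p = 0.595). The ABC transporter probe 28K_057_D05, of a family of membrane pumps, had 11, 11.69 and 11.30 at 1 DPA, against 10.92, 11.35 and 11.50 at 0 DPA, and a change of log2 0.07 (adjusted p = 0.895).

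Neither of the 2 hormone signalling probes passed in XinFLM, and both passed downward for the difference of change. The kinase BAK1, which acts in Arabidopsis as a co-receptor of brassinosteroids, had XinFLM intensities of 9.90, 9.94 and 11.29 at 1 DPA (28K_164_D07), against 11.38, 11.34 and 12.15 at 0 DPA. Replicate 3 of 1 DPA lay just below the lowest array of 0 DPA, and the change of log2 -1.25 (2.38-fold, standard error 0.39, adjusted p = 0.0799) did not pass with all arrays but did without replicate 3 of 1 DPA (log2 -1.71, adjusted p = 0.00262). Without replicates 1 and 2 of 1 DPA it was log2 -0.34 (adjusted p = 0.672). In XinWX the change was log2 -0.14 (adjusted p = 0.898). The log2 ratio of XinFLM over XinWX was 0.28, 0.36 and 1.31 at 1 DPA, against 1.53, 1.49 and 2.27 at 0 DPA, so that XinFLM was higher at both stages and less so at 1 DPA. The difference was log2 -1.11 (standard error 0.27, adjusted p = 0.0176). It missed the threshold with no faint filter (0.0549), with spots of the lowest scanner flag counted as faint (0.0603) and with replicates 1 and 2 averaged (0.121). It also missed it without replicate 3 of 0 DPA (0.0741) and without replicate 1 or 2 of 1 DPA (0.0906 and 0.075). Without both it was log2 -0.45 (adjusted p = 0.346). ARF7, an auxin response transcription factor, had 11.79, 11.45 and 10.31 in XinFLM at 1 DPA (28K_256_D11), against 11.47, 11.45 and 11.64 at 0 DPA. Replicate 3 of 1 DPA was far below the others, and the change of log2 -0.34 did not pass (adjusted p = 0.561). It was log2 0.09 (adjusted p = 0.843) without replicate 3 of 1 DPA, and -1.23, past the threshold (adjusted p = 0.0237), without replicates 1 and 2 of 1 DPA. Its ratio was -1.08, -0.70 and -1.14 at 1 DPA, against -0.27, -0.42 and -0.20 at 0 DPA, and the difference of log2 -0.68 (adjusted p = 0.0255) did not pass without any single array of 0 DPA (adjusted p 0.0643 to 0.106), without replicate 1 of 1 DPA (0.0809) or with replicates 1 and 2 averaged (0.186). Nor did the difference pass with scale normalization of the ratios (log2 -0.46, adjusted p = 0.112) or with no faint filter (adjusted p = 0.0605).

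GH3 proteins attach amino acids to auxin or to JA in Arabidopsis. Neither of the 2 probes passed in XinFLM, and 1 passed for the difference of change. Probe 28K_086_B03 had 11.69, 12.03 and 11.64 in XinFLM at 1 DPA, against 11.80, 12.33 and 11.83 at 0 DPA (log2 -0.20, adjusted p = 0.741). Its ratio was -1.33, -1.78 and -1.06 at 1 DPA, against -0.71, -0.52 and -0.80 at 0 DPA, with XinFLM the lower line on every array and more so at 1 DPA. The difference of log2 -0.71 (standard error 0.20, adjusted p = 0.0394) was lost in 15 of 30 alternatives, among them each single array of 0 DPA left out (adjusted p 0.0565 to 0.171), replicate 1 or 2 of 1 DPA left out (0.0829 and 0.131), replicate 1 or 2 of -1 DPA left out (0.0606 and 0.0539), and replicates 1 and 2 averaged (0.373). Without both replicates 1 and 2 of 1 DPA this difference was log2 -0.38. Probe 28K_236_A10 had 391, 155 and 376 XinFLM units at 1 DPA, against 1207, 1058 and 776 units at 0 DPA. All arrays of 1 DPA were lower and under 400 units, with a bound of a 1.62-fold lower signal. The fitted change of log2 -0.99 did not pass (adjusted p = 0.105). Its difference of change was log2 -0.43 (adjusted p = 0.329). Without replicate 3 of 1 DPA both passed, with a change of log2 -1.25 (adjusted p = 0.00898) and a difference of log2 -0.72 (adjusted p = 0.0444), and without replicates 1 and 2 of 1 DPA they were -0.49 (adjusted p = 0.314) and 0.16 (adjusted p = 0.602).

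Of the 2 sterol and steroid probes and the 3 probes for nuclear pore, splicing and ribosome, none passed for the change in XinFLM or for the difference of change. By the study's account 28K_001_D11, 28K_141_D12, 28K_118_C05 and 28K_206_B07 were picked as probes that did not differ between the lines on its arrays. That choice made the lack of a difference likely, so it is no separate result. Sterol 14-demethylase, which acts in sterol synthesis and is represented by 28K_096_A10, had a change of log2 -0.19 (standard error 0.28), with 11.79, 11.89 and 12.12 at 1 DPA against 12.24, 12.22 and 11.90 at 0 DPA. The 3-beta-hydroxy-delta5-steroid dehydrogenase probe 28K_001_D11 had log2 0.55 (standard error 0.36), the nuclear pore probe 28K_141_D12 had 0.30 (0.24), and the splicing factor probe 28K_118_C05 had -0.28 (0.28). Ribosomal protein L30 (28K_206_B07) had 9.74, 9.48 and 10.62 at 1 DPA, against 10.45, 11.53 and 10.54 at 0 DPA. Its change was log2 -0.90 (standard error 0.34, adjusted p = 0.145) in XinFLM and -0.98 (adjusted p = 0.172) in XinWX, and without replicate 3 of 1 DPA the change in XinFLM was -1.24 (adjusted p = 0.0186), and without replicates 1 and 2 it was -0.22 (adjusted p = 0.8). Its difference of change of log2 0.08 rests on 2 arrays of 1 DPA, since replicate 2 was under 400 units in both channels. The adjusted p of these 5 probes lay between 0.145 and 0.748 for the change and between 0.229 and 0.982 for the difference.

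Over the longer span from -1 to 1 DPA, 5 of the 18 probes with a gene name had an FDR under 0.05 in XinFLM, beside 13.3% of all tested probes. These comparisons share the arrays of 1 DPA or 0 DPA with the one above. The changes of -1 to 0 DPA and of -1 to 1 DPA were log2 0.73 (adjusted p = 0.433) and 1.71 (adjusted p = 0.00132) for the lipid transfer protein 28K_179_F11, and 0.82 (adjusted p = 0.224) and 1.35 (adjusted p = 0.00304) for benzoquinone reductase 28K_233_A03. For OPR3 28K_299_E12 they were -0.07 (adjusted p = 0.987) and -1.70 (adjusted p = 0.00862), the second with under 400 units on every array of 1 DPA. For lipoxygenase 28K_275_B02 they were -0.87 (adjusted p = 0.583) and -1.48 (adjusted p = 0.0417), and for the ABC transporter 28K_057_D05 0.88 (adjusted p = 0.102) and 0.95 (adjusted p = 0.0121). For BAK1 28K_164_D07 they were 0.37 (adjusted p = 0.854) and -0.88 (adjusted p = 0.149). Of the probes given by ID, 28K_218_F10 had 0.20 (adjusted p = 0.947) and 3.14 (adjusted p = 7.82e-05), and 28K_250_H06 had -0.64 (adjusted p = 0.667) and -3.49 (adjusted p = 1.11e-05).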

How the data were processed

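Spot and local background intensities of both dyes were taken as deposited, without normalization, from the authors' scanner output. A further deposited table holds the authors' log2 ratios of Cy5 over Cy3, normalized within arrays and in the dyes' own direction on every array, and it served as an alternative only. Its medians per array lay between -0.00915 and 0.00819, and its ratios correlated with those computed here at r = 0.944 to 0.998 across kept probes. For their own processing the submitters' notes list R 2.12.2 with limma 3.4.5.

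Intensities were background-corrected by normexp (offset 50) in limma 3.58.1 (R 4.3.3, statmod 1.5.0). Spots under 400 units in both channels were treated as faint, and 20544 to 23884 probes were kept per array. Ratios were normalized within arrays by loess (span 0.3, 4 iterations, faint and control spots at weight 0) and intensities across arrays by Aquantile. All 9 arrays and both channels entered limma's separate-channel fit (intraspot correlation 0.786), in which faint values stayed, and the ratios of all 9 arrays entered a second fit for the difference of change, in which faint spots were left out. P-values were adjusted over all tested probes by the Benjamini-Hochberg method. Of 18 probes with a gene name, 2 carry a 29k prefix in the primer table and were matched to the 28K probes of the same number. Probes given by ID are, among called probes, the 2 largest in each direction with at least 400 XinFLM units on all 6 arrays and no overlap, and the 2 largest lower bounds in each direction. The 2 largest differences of change in each direction were added. For these the difference had an FDR under 0.05, with ratios kept on all 6 arrays and no overlap of the ratios. A call in XinFLM or 400 units in its channel was not required. The members and lists were chosen with earlier results of these data known. The fits were tested on simulated data with 200 changed probes. The number of arrays limits the precision. Figures were drawn with matplotlib 3.10.9 (Python 3.11.15).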

Additional observations from a re-analysis of the deposited data

Results flagged for a closer look

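The following results were picked out because the change from 0 to 1 DPA differed between XinFLM and XinWX by a test of the difference itself (limma, FDR under 0.05). Outlying samples were not searched for, since each group has 3 arrays. Among the probes with a gene name the differences (log2, change in XinFLM minus change in XinWX) were -1.31 for lipoxygenase 28K_275_B02, -1.29 for OPR3 28K_299_E12, -0.71 for GH3 28K_086_B03, -1.11 for BAK1 28K_164_D07, -0.68 for ARF7 28K_256_D11, 1.30 for lipid transfer protein 28K_179_F11 and 1.01 for benzoquinone reductase 28K_233_A03. Among the probes given by ID they were upward for 28K_196_F06 (2.87), 28K_201_D02 (2.78), 28K_218_F10 (2.65) and 28K_152_C05 (0.86), and downward for 28K_118_B04 (-3.14), 28K_277_G11 (-3.08), 28K_294_D08 (-2.57), 28K_250_H06 (-2.41) and 28K_070_D10 (-1.82). For 28K_299_E12, 28K_294_D08 and 28K_070_D10 no array of 1 DPA reached 400 units in XinFLM, so that their differences rest on values near background.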

How the results depend on the processing

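The number of probes called in XinFLM (692) was 0 with replicates 1 and 2 averaged, 1475 with replicates 2 and 3 averaged, 352 with the arrays of 0 and 1 DPA alone and 354 without normalization across arrays, and from 128 to 2346 when 1 array was left out. After seeing the data, a faint limit of 1500 units was added, which gave 289. The number with a difference of change (1806) was 475 with replicates 1 and 2 averaged, 2992 with replicates 2 and 3 averaged, 1088 with no faint filter, 3736 with array quality weights and 1195 with the faint limit of 1500 units, and from 856 to 2297 when 1 array was left out. With the replicate block, given below, as the one further exception, the other alternatives stayed within 1.5 times. The cause of the moves was not tested. Same-numbered arrays of 1 and 0 DPA had the same dye layout. Their deviations from the stage means correlated at 0.0374, 0.0499 and 0.0821 in XinFLM. The values were -0.102, -0.0194 and 0.00261 in XinWX, and -0.0351, -0.0628 and 0.0501 for the log2 ratio. Whether such arrays shared plants or a batch was not tested. With the replicate number as a block 1152 probes were called in XinFLM (431 higher and 721 lower), and 1815 had a difference of change.

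Of 1778 values of single probes under these alternatives, 35 had the opposite sign, and 0 of these were values that passed with all arrays. The changes in XinFLM concerned were -0.05 for 28K_057_D05 and 0.03 for 28K_150_B07 with centring within grids; -0.01 for 28K_141_D12, -0.05 for 28K_069_H08, -0.22 for 28K_156_D09 and -0.23 for 28K_057_D05 without normalization across arrays; -0.06 for 28K_156_D09 with replicates 1 and 2 averaged; and 0.18 for 28K_150_B07, -0.24 for 28K_001_D11, -0.69 for 28K_156_D09 and -0.11 for 28K_069_H08 without replicates 1 and 2 of 1 DPA. When 1 array was left out they ranged from -0.08 to 0.53 for 28K_156_D09, from -0.11 to 0.24 for 28K_057_D05 and from -0.65 to 0.09 for 28K_256_D11. The differences of change concerned were 0.05 (spots with the lowest scanner flag counted as faint), 0.00 (median centring) and 0.06 (scale normalization) for 28K_001_D11, with -0.27 to 0.15 when 1 array was left out, and -0.01 (median centring), -0.05 (no background correction) and -0.02 (scale normalization) for 28K_206_B07, with -0.05 and -0.02 when 1 array was left out. Without replicates 1 and 2 of 1 DPA they were -0.21 for 28K_069_H08, -0.15 for 28K_156_D09, 0.16 for 28K_236_A10, -0.02 for 28K_206_B07, -0.23 for 28K_206_C03 and -0.30 for 28K_272_G06. Signals under 400 units allow lower bounds only.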
